A study of Arabidopsis thaliana with 12 samples.

Results

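PYK10, BGLU21, BGLU22 and NAI2 are 4 Arabidopsis thaliana genes whose products reside in ER bodies, and their transcript levels were followed here in roots and shoots. The genes were chosen by name, with earlier results of these data known, and each was read from the feature annotated to that gene alone. Each had 1 such feature, so no choice between features was needed, and all 4 were measured among 16550 singly annotated genes and 38408 features in all.

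ER bodies are spindle-shaped compartments continuous with the endoplasmic reticulum, found in plants of the Brassicales. They store β-glucosidases away from their substrates, and enzyme and substrate meet when cells are damaged. NAI2 is an ER body protein needed for the compartments to form. PYK10, also named BGLU23, is the major β-glucosidase of root ER bodies and can act on indole glucosinolates. BGLU21 and BGLU22 are its close relatives, and the 3 enzymes are known to hydrolyse scopolin, a coumarin glucoside stored in roots. PYK10 (AT3G09260) and NAI2 (AT3G15950) lie on chromosome 3. BGLU21 (AT1G66270) and BGLU22 (AT1G66280) lie on chromosome 1 as direct neighbours, with 0 genes between them in RefSeq's annotation of TAIR10.1.

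All seedlings, controls included, carried an estradiol-inducible transgene for CLE3, a small secreted signalling peptide. The roots of 7-day-old plants, grown on half-strength Murashige and Skoog medium in continuous white light, received either estradiol or its solvent DMSO for 24 h. The labels give the dose as 5 mM. Roots and shoots were then collected separately, which by the sample titles gave 4 groups of 3 arrays: root DMSO, root estradiol, shoot DMSO and shoot estradiol. Against the titles, the source label reads estradiol on all root arrays and DMSO on all shoot arrays. That label was not used. Neither the promoter behind the inducible system nor the number of transgenic lines is stated in the labels, and no plants without the transgene were among the samples. The level of CLE3 itself was not analysed here, because no listed feature was annotated to it alone. Whether the replicates are separate cultures is not stated. The p-values therefore rest on array-to-array spread that may be technical.

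The array titled root DMSO replicate 3 correlated better with the shoot arrays (mean r = 0.981) than with the root arrays (0.874). The array titled shoot estradiol replicate 3 correlated better with the root arrays (0.986) than with the shoot arrays (0.874). Both were left out of the main results, which therefore rest on 2 root DMSO, 3 root estradiol, 3 shoot DMSO and 2 shoot estradiol arrays. On these 10 arrays the organs are described by 2 measured root hair genes and 4 measured photosynthesis genes. They are no separate check of the titles, since the 2 arrays with the other organ's profile had been left out. The expansin genes EXPA7 and EXPA18 were higher in roots under both treatments, EXPA18 at 8.08 to 8.40 in roots and 1.74 to 4.20 in shoots. SBPASE, PRK, RCA and LHCB4.1, which act in carbon fixation and light harvesting, were all higher in shoots under both treatments. In whole organs, fewer cells of a type and less RNA per cell cannot be told apart. Values are the deposited log2 expression values, on which a difference of 1 is a doubling. A level on this scale also reflects how well a feature binds, so levels are compared between arrays for 1 gene and not between genes.

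All 4 ER body genes were higher in roots than in shoots under both treatments. BGLU21 and BGLU22 differed by about 7 log2 units under DMSO, whereas NAI2 and PYK10 differed by less than 2. No estradiol effect on any of them passed the test in either organ.

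NAI2, the structural member, read 11.98 and 12.09 on the root DMSO arrays and 12.001, 11.92 and 11.96 on the root estradiol arrays. In shoots it read 9.97, 9.98 and 10.30 under DMSO and 9.70 and 9.88 under estradiol. Every root array was above every shoot array, with a gap of 1.62 between the lowest root and the highest shoot value. The spread within an organ was smaller than that gap, at 0.17 across roots and 0.61 across shoots. Roots exceeded shoots by 1.95 ± 0.14 (SE) under DMSO, a 3.86-fold difference with a 95% interval of 3.11 to 4.80 (limma, adjusted p = 5.87e-06). Under estradiol the difference was 2.17 ± 0.14, or 4.51-fold (adjusted p = 3.26e-06). NAI2 was still among the brighter features in shoots, between the 95.2 and 97.1 percentiles of its array.

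PYK10, the main root enzyme, read 13.23 and 13.07 on the root DMSO arrays and 13.13, 13.15 and 13.20 on the root estradiol arrays. In shoots it read 11.69, 11.72 and 11.87 under DMSO and 11.40 and 11.70 under estradiol. The organs again did not overlap, and their nearest values were 1.20 apart. Roots exceeded shoots by 1.39 ± 0.13 (SE) under DMSO, or 2.62-fold with a 95% interval of 2.13 to 3.22 (limma, adjusted p = 3.49e-05), and by 1.61 ± 0.13, or 3.05-fold, under estradiol (adjusted p = 1.43e-05). Its shoot level was far from absent, lying between the 98.7 and 99.2 percentiles of each array. In roots the feature lay 0.59 to 0.70 log2 units below the brightest feature of its array, and in shoots 1.75 to 2.30 below. Whether closeness to the top of the range narrowed the PYK10 difference was not tested. A further feature, annotated jointly to PYK10 and AT3G03870, stayed between 2.99 and 3.97 on all 12 arrays. It differed between organs by 0.05 under DMSO (limma, adjusted p = 0.866) and 0.36 under estradiol (adjusted p = 0.218), and it names neither gene here.

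BGLU21, a close relative of PYK10, read 10.44 on both root DMSO arrays and 10.30, 10.39 and 10.21 on the root estradiol arrays. In shoots it read 2.89, 3.87 and 3.72 under DMSO and 3.71 and 4.47 under estradiol. The root values lay within 0.23 of each other and the shoot values within 1.58, and 5.73 log2 units separated the organs at their nearest. The DMSO difference was 6.94 ± 0.31 (SE), or 123-fold with a 95% interval of 75.8 to 199.9 (limma, adjusted p = 5.26e-07). Under estradiol it was 6.21 ± 0.31, or 74.0-fold (adjusted p = 9.11e-07).

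BGLU22, the neighbour of BGLU21 on the chromosome, read 10.44 and 10.25 in DMSO roots, 10.60, 10.23 and 10.31 in estradiol roots, 3.67, 2.55 and 3.06 in DMSO shoots, and 2.20 and 3.61 in estradiol shoots. The nearest root and shoot values were 6.56 apart. Roots exceeded shoots by 7.25 ± 0.42 (SE) under DMSO, or 152-fold with a 95% interval of 78.6 to 295 (limma, adjusted p = 1.89e-06). Under estradiol the difference was 7.47 ± 0.42, or 178-fold (adjusted p = 1.71e-06). Both BGLU21 and BGLU22 lay near the 97 percentile of the root arrays. In shoots BGLU21 fell between the 22.5 and 43.6 percentiles and BGLU22 between the 10.6 and 33.1 percentiles, below the array medians of 4.99 to 5.09. The table holds no detection calls, so whether these shoot values exceed background was not tested, and the fold differences depend on where background lies. Whether BGLU21, BGLU22 and PYK10 share hybridising sequence on the array was not tested.

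**Figure D1:**
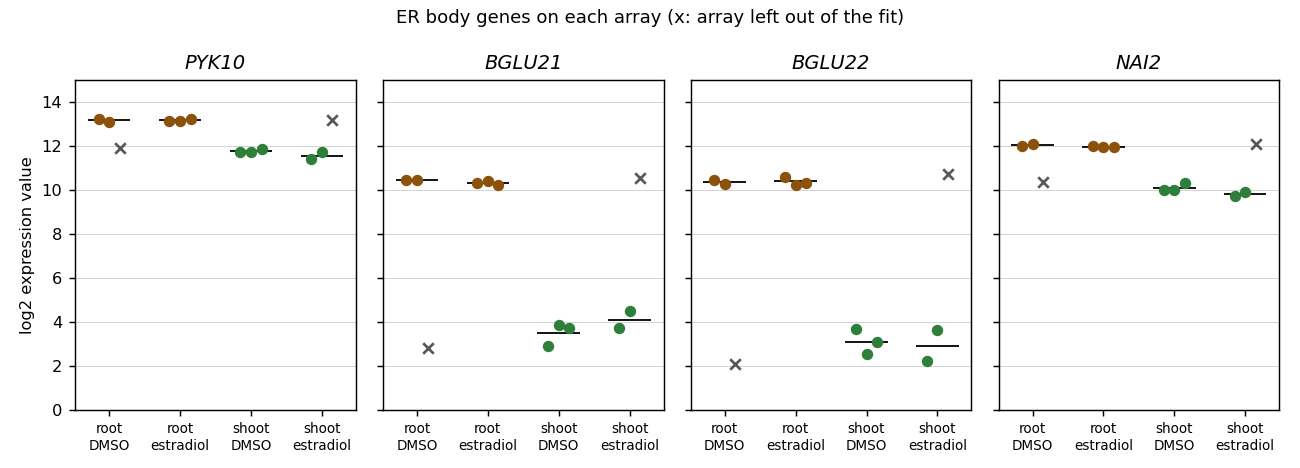
Deposited log2 value of PYK10, BGLU21, BGLU22 and NAI2 on each array by group, with points for single arrays and bars for group means of the 10 arrays used. The 2 arrays left out are drawn separately and lie with the other organ. BGLU21 and BGLU22 sit above 10 in roots and below 5 in shoots.

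Organ differences were common among all features, so the calls of these 4 genes need that background. Under DMSO 39.2% of the 38408 features passed, 19.3% higher in roots and 19.9% higher in shoots, and under estradiol 39.3% passed, 19.5% higher in roots and 19.8% higher in shoots. By size of the DMSO difference, BGLU22 ranked 32 and BGLU21 ranked 42 of 38408, whereas NAI2 ranked 3989 and PYK10 ranked 6201. Under estradiol the ranks were 25 for BGLU22, 87 for BGLU21, 3137 for NAI2 and 5079 for PYK10. These ranks of BGLU21 and BGLU22, and the order between them, depend on where background lies in shoots. The median difference over all features was -0.09 under DMSO and -0.07 under estradiol.

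With all 12 arrays kept under their titles, the organ calls were lost for all 4 genes under both treatments. The DMSO differences were then 0.97 for PYK10, 4.39 for BGLU21, 4.49 for BGLU22 and 1.39 for NAI2, with limma adjusted p-values of 0.273 to 0.289. On these titles root DMSO replicate 3 read 11.89 for PYK10, 2.79 for BGLU21, 2.07 for BGLU22 and 10.36 for NAI2. It lay near the shoot arrays for each gene, though slightly outside the range of the 5 shoot arrays used.

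**Figure D2:**
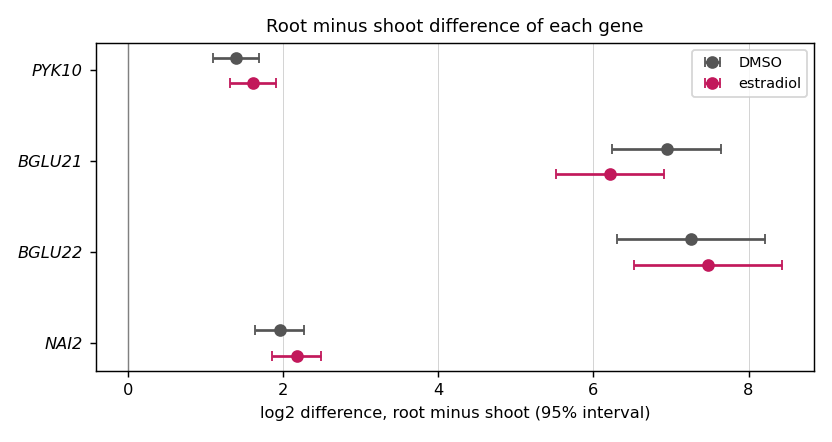
Root minus shoot difference in log2 units for each of the 4 genes under DMSO and under estradiol, with points for limma estimates and bars for 95% intervals on 10 arrays. All intervals lie above 0, and the DMSO estimates run from 1.39 for PYK10 to 7.25 for BGLU22.

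The size of the organ difference was then compared between genes. For each pair, the within-array difference of the 2 genes was set between 5 root and 5 shoot arrays, with organ labels exchanged within treatment in an exact two-sided permutation test. The 100 arrangements allow no p below 0.01, and p-values were adjusted over the 6 pairs. The organ difference of BGLU21 exceeded that of PYK10 by 5.08 and that of NAI2 by 4.52 log2 units. BGLU22 exceeded PYK10 by 5.86 and NAI2 by 5.30. The difference of NAI2 exceeded that of PYK10 by 0.56, and by the same 0.56 within DMSO and within estradiol. Each of these 5 pairs gave the smallest permutation p, 0.01, adjusted to 0.012. In roots PYK10 lay 0.59 to 0.70 log2 units below the brightest feature of its array. Whether that closeness narrowed its difference relative to NAI2 was not tested.

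The pair of neighbours was the exception. The organ difference of BGLU21 minus that of BGLU22 was -0.79 on average, -0.31 under DMSO and -1.26 under estradiol, with an exact permutation p of 0.12 before and after adjustment. Their within-array difference ran from -0.30 to 0.18 in roots and from -0.78 to 1.50 in shoots, so the organs overlapped. The value therefore rests on shoot levels not shown to exceed background, and it gives no order between the 2 genes. Without shoot DMSO replicate 1 it was -1.08, with an exact permutation p of 0.0167, the smallest possible with that array out.

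**Figure D3:**
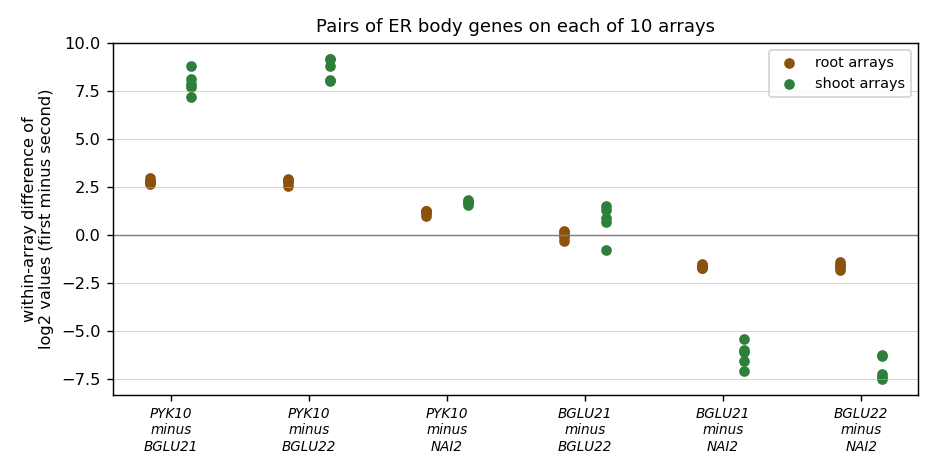
Within-array log2 difference between the 2 genes of each of the 6 pairs, with 1 point per array for 5 root and 5 shoot arrays. The organs separate in 5 pairs and overlap for BGLU21 minus BGLU22.

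Estradiol moved none of the 4 genes past the threshold in roots, where 0.0026% of features, 1 in number, passed. The estimates, with 95% intervals, were 0.01 (-0.29 to 0.31) for PYK10, -0.14 (-0.84 to 0.56) for BGLU21, 0.03 (-0.92 to 0.99) for BGLU22 and -0.07 (-0.39 to 0.24) for NAI2. All had a limma adjusted p of 0.999. The root groups overlapped for PYK10, BGLU22 and NAI2. For BGLU21 all 3 estradiol arrays lay below both DMSO arrays. Groups of 2 and 3 arrays can separate fully by order alone, and the share of all features doing so was not counted. A fit to the root arrays alone gave -0.14 ± 0.12 for BGLU21 (SE, limma adjusted p = 0.987). The main fit shares its spread with the shoot arrays, and the root-only fit gave 0.03 ± 0.16 (SE) for BGLU22. With 2 and 3 arrays, changes within these intervals could have gone undetected. So could larger ones, since a call also had to pass the adjustment over all features.

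In shoots 0% of features passed, with 3125 features below an unadjusted limma p of 0.05. NAI2 had an estimate of -0.30 (95% interval -0.61 to 0.02; limma adjusted p = 0.637), and both its estradiol arrays lay below all 3 DMSO arrays. Groups this small can separate by order alone, and the share of all features separating in shoots was not counted. The PYK10 estimate was -0.21 (-0.51 to 0.08; adjusted p = 0.735), and its groups overlapped by less than 0.01. BGLU21 gave 0.60 (-0.10 to 1.3; adjusted p = 0.677) and BGLU22 gave -0.19 (-1.15 to 0.76; adjusted p = 0.955), both with overlapping groups at shoot levels not shown to exceed background. In the same contrast the root hair genes EXPA7 and EXPA18 gave 0.10 and 0.74, and neither passed. Whether traces of root material moved with these values was not tested.

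The estradiol effects did not differ between organs past the threshold for any of the 4 genes, and 0.0026% of features, again 1, passed that test. The difference of the effects, roots minus shoots, was 0.22 (95% interval -0.20 to 0.64) for PYK10, -0.73 (-1.72 to 0.26) for BGLU21, 0.22 (-1.13 to 1.57) for BGLU22 and 0.22 (-0.22 to 0.67) for NAI2. The limma adjusted p was 1 for each.

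**Figure D4:**
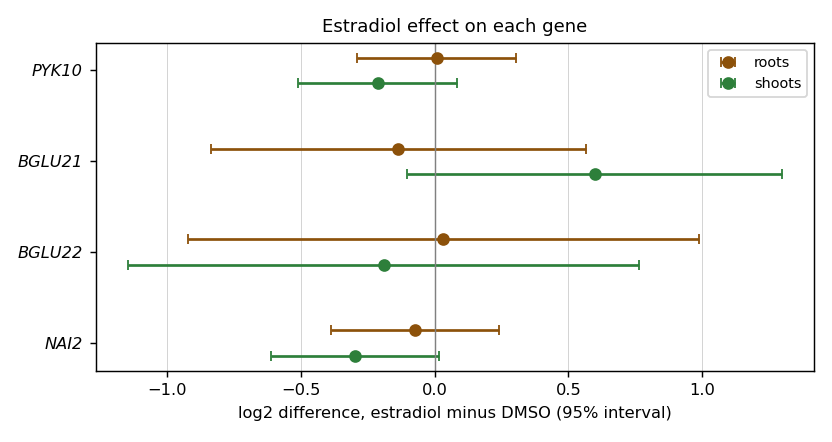
Estradiol minus DMSO in log2 units for the 4 genes in roots and in shoots, with points for limma estimates and bars for 95% intervals on 10 arrays. Every interval includes 0, and the widest belong to BGLU22.

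Other ER body genes were measured only in part. Of 13 genes in that group 9 had a feature of their own, 5 besides the members. Among the 5, 3 were higher in roots under DMSO and 2 under estradiol, none was lower, and their median differences were 1.10 and 0.65. Over all features 19.3% and 19.5% were higher in roots. NAI1, the transcription factor needed for ER body formation and for PYK10 and NAI2 expression, read 6.58 to 6.91 in roots and 4.36 to 4.85 in shoots. Its organ difference was 2.16 ± 0.15 (SE) under DMSO (limma, adjusted p = 6.44e-06) and 2.32 under estradiol. BGLU25, another β-glucosidase of the PYK10 subfamily, was higher in roots by 1.36 under DMSO (adjusted p = 3.46e-05) and 1.64 under estradiol. BGLU19 was higher by 1.10 under DMSO (adjusted p = 0.0239), and its estradiol value of 0.44 did not pass (adjusted p = 0.32). BGLU24 gave 0.52 and 0.65, and neither passed. BGLU20, the only one of the 5 with the opposite sign and named after its values were seen, gave -0.04 and -0.32, and neither passed. BGLU20 and BGLU24 read at most 2.51 on the 10 arrays used, levels not shown to exceed background.

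PYK10 forms complexes with jacalin-related lectins and GDSL lipase-like proteins when tissue is broken. Of 10 genes for such partners 6 were measured. Under DMSO 4 were higher in roots, against 19.3% of all features, and 1 was lower, against 19.9%. The remaining 1 did not pass, and the median was 2.28. Under estradiol 4 were higher, against 19.5% of all features, and 2 lower, against 19.8%, with a median of 2.37. The lectin genes JAL31, JAL34, JAL33 and JAL22 were higher in roots by 3.41, 2.96, 2.67 and 1.89 under DMSO, with limma adjusted p-values of at most 7.28e-05. JAL31, for example, read 7.30 to 7.47 in roots and 3.75 to 4.03 in shoots. The members with the opposite sign, named after their values were seen, were the lectin gene JAL23 at -1.40 (adjusted p = 9.00e-04) and the lipase-like gene GLL23 at -0.39 (adjusted p = 0.0687). Under estradiol JAL23 gave -1.38 and GLL23 gave -0.49, and both passed. JAL23 read 2.20 to 2.92 in roots and 3.76 to 4.26 in shoots, below the array medians. In shoots JAL31 and JAL33 also lay below the array medians, JAL33 at 2.62 to 3.05. Whether these values of JAL23, JAL31 and JAL33 exceed background was not tested, and their organ differences depend on where background lies.

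The substrate side was thinly covered. Of 18 indole glucosinolate genes 3 were measured. The glucosinolate transporter gene GTR2 was higher in roots by 1.00 under both treatments (limma, adjusted p = 0.00106 under DMSO). UGT74B1, a glucosyltransferase of the core pathway, gave 0.27 and 0.38, and GTR1, the other transporter, gave -0.10 and -0.13, with no call. None of 11 genes for other myrosinases and glucosinolate turnover had a feature of its own. Of 10 ER chaperone genes 2 were measured, and the calreticulin gene CRT2 was higher in roots by 0.68 (adjusted p = 0.00237), whereas BIP1 gave 0.43 and did not pass. The BIP1 feature read only 1.93 to 2.72 on the arrays used, a level not shown to exceed background. Over all features 19.3% were higher in roots under DMSO and 19.5% under estradiol, and so few measured genes describe neither group.

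Among 20 other genes of the β-glucosidase family, BGLU19, BGLU24 and BGLU25 included, 8 were higher in roots under DMSO, 4 were higher in shoots and 8 did not pass, with a median of 0.12. Under estradiol the counts were 7, 5 and 8, where 19.5% of all features were higher in roots and 19.8% higher in shoots. BGLU24, BGLU27, BGLU29, BGLU31, BGLU32 and BGLU36 had group means of 1.25 to 2.67, below the array lower quartiles of 2.92 to 3.12. Whether these 6 exceed background was not tested, and the counts and median include them. The shoot calls under estradiol include BGLU32, at 1.57 in roots and 2.45 in shoots. Over all features 19.3% were higher in roots and 19.9% in shoots under DMSO, so 4 of 20 higher in shoots is near that background. The largest DMSO differences in the family were -3.66 for BGLU40, -3.41 for BGLU33 and 3.36 for BGLU46, all smaller than those of BGLU21 and BGLU22. No estradiol effect of any gene in these groups passed in either organ, and the smallest limma adjusted p was 0.443, for BGLU25 in shoots at -0.43.

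**Figure D5:**
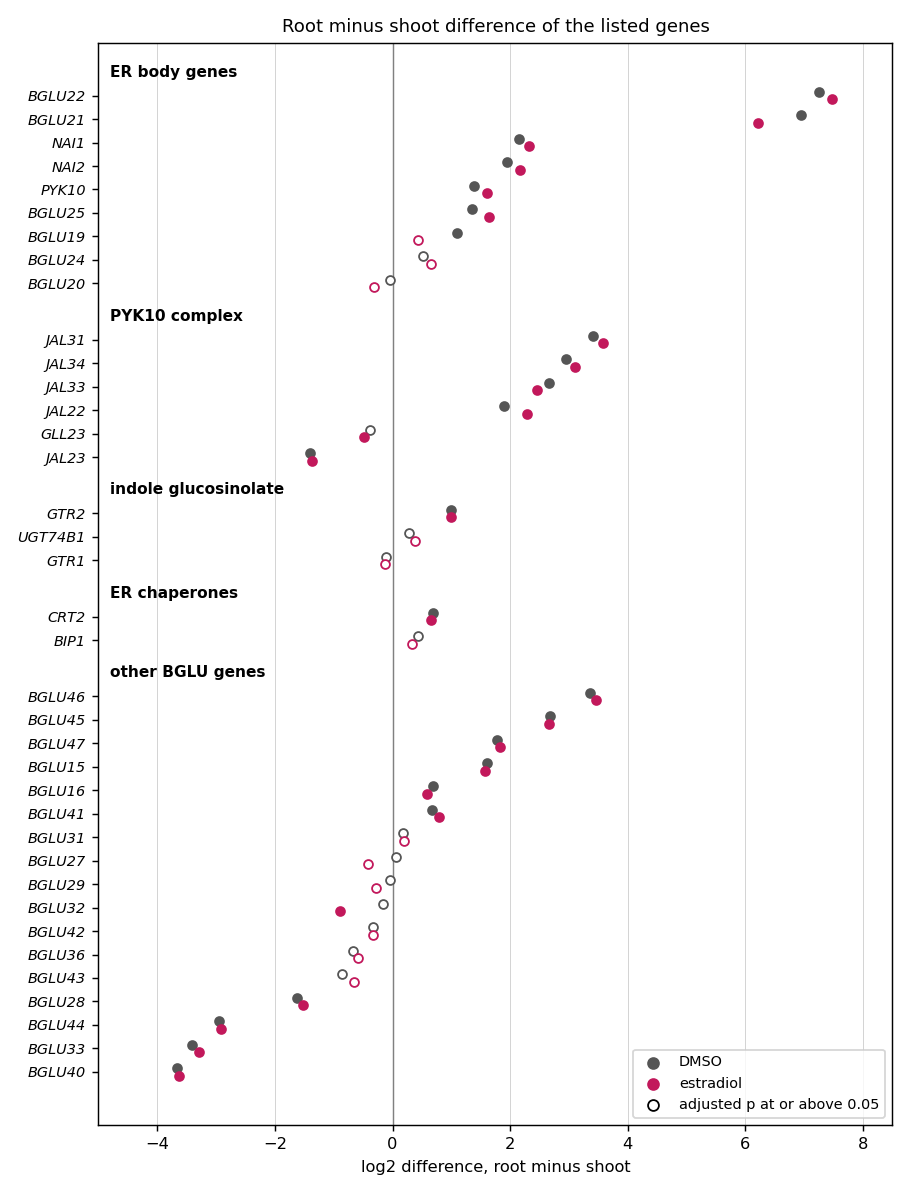
Root minus shoot difference in log2 units for the measured genes of each group under DMSO and under estradiol, with white points where the limma adjusted p was 0.05 or above. The 4 members lie between 1.39 and 7.47, and JAL23 and GLL23 lie below 0 among the partners of PYK10.

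Likeness of pattern was taken as Pearson r over the 10 arrays among 16549 other singly annotated genes. The root and shoot arrays stand far apart, and that separation enters every r, so the values are a description only. The number of genes with r above 0.9 was 2835 for PYK10, 2896 for BGLU21, 2878 for BGLU22 and 2855 for NAI2. The genes most like PYK10 were AT2G04100 (r = 0.998), AT3G21351 and AT1G61840 (0.997 each). For NAI2 they were AT5G20660 (0.998), AT3G20370 (0.997) and AT1G62770 (0.996). For BGLU21 they were AT1G22440 (0.999), AT5G54370 and AT1G72120 (0.998 each), and for BGLU22 they were AT5G23830 (0.999), AT1G30130 and AT4G30670 (0.998 each). Among the members, PYK10 and NAI2 were closest to each other (r = 0.995), with NAI2 at rank 17 for PYK10 and PYK10 at rank 18 for NAI2. BGLU21 and BGLU22 gave 0.986. High r did not mean equal size, since the organ difference of AT1G30130 under DMSO was 1.55 against 7.25 for BGLU22.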

How the data were processed

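The 12 Arabidopsis RNA samples were each hybridised to a one-colour Affymetrix whole-transcript array. The deposited table holds log2 expression values, a scale read from the values, which no label states. The submitters' processing notes name Affymetrix Expression Console 1.3, with settings not given in the sources used here. Depth has no counterpart on arrays, and precision is limited by how many arrays there are.

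Features were named from the platform annotation, updated by identifier from RefSeq's annotation of TAIR10.1. Of 38408 features 16722 had 1 gene, 759 several and 20927 none listed. Members and gene lists were chosen with earlier results of these data known.

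Group means of 10 arrays were fitted to all features with limma 3.58.1 in R 4.3.3, with a two-sided test and Benjamini-Hochberg adjustment over all features at 0.05. The script was tested on simulated data. Pairs of members were compared by an exact permutation test. Per list, up to 4 genes with the smallest p were named, with the 3 β-glucosidases of largest organ difference and the 3 genes most like each member. Alternatives were all 12 arrays, either set of 11, the replicate number as block, array weights, quantile normalization, a low-value filter, an intensity trend, fewer groups and each array left out. Same-numbered arrays of different groups gave correlations of deviations from -0.02 to 0.12, with 1 of 13 over 0.1. Little shared deviation was thus seen. The 13 values are not all independent, because deviations within a small group are tied to each other. They do not decide whether the replicate numbers pair the samples, and the main fit left those numbers out. No sequence is printed.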

Additional observations from a re-analysis of the deposited data

Results flagged for a closer look

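The array titled shoot estradiol replicate 3, which the comparisons did not use, carried a signal of all 4 genes above the shoot DMSO arrays. It read 13.17 for PYK10, where the highest shoot DMSO array read 11.87. It read 10.53 for BGLU21 against 3.87, 10.70 for BGLU22 against 3.67 and 12.08 for NAI2 against 10.30. For PYK10 and NAI2 this array lay within the range of the 5 root arrays used, and for BGLU21 and BGLU22 it lay above that range. How the array came to carry its title was not tested.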

How the results depend on the processing

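On the 10 arrays the organ difference of all 4 genes kept its direction and its call under every alternative, each array left out included, except on the feature annotated jointly to PYK10 and AT3G03870, with the highest limma adjusted p at 0.000994. With all 12 arrays 0 features were called between organs under DMSO, 1 under estradiol, 0 for estradiol in roots and 0 for the difference of the effects. DMSO organ differences were then 0.97, 4.39, 4.49 and 1.39 for PYK10, BGLU21, BGLU22 and NAI2, estradiol ones 1.07, 4.06, 4.88 and 1.41, and pairs of members gave -3.21, -3.67, 2.83 and 3.28 (exact permutation p of 0.075 to 0.08). Signs turned for BGLU21 (2.41) and NAI2 (0.48) in roots and for PYK10 (0.33), BGLU22 (2.41) and NAI2 (0.47) in shoots. Keeping only root DMSO replicate 3 gave the same DMSO and root values, 0, 8509 and 0 features called for the organs under DMSO, under estradiol and the difference, and 1.82 for the BGLU21 difference of effects. Keeping only shoot estradiol replicate 3 gave the same estradiol and shoot values, 9695, 1, 0 and 0 features called (organs under DMSO and estradiol, roots, difference), and differences of effects of -0.32, -2.37 and -0.54 for PYK10, BGLU22 and NAI2. With the replicate number as a block 0 features were called in roots and 0 for the difference, and PYK10 in roots was -0.029. Near-zero root effects also turned with array weights (BGLU22, -0.016) and quantile normalization (PYK10, -0.055). The joint PYK10 feature gave 0.053 and 0.36 between organs and -0.14 in roots. Leaving out each array in turn, features called ranged from 0 to 1 in roots (0 without root DMSO replicate 1), 0 to 4 in shoots (4 without shoot DMSO replicate 1, 2 without shoot estradiol replicate 2) and 0 to 23 for the difference (23 without root estradiol replicate 3, otherwise at most 1). PYK10 in roots ranged from -0.072 to 0.087, and BGLU22 from -0.077 to 0.13 in roots, -0.89 to 0.51 in shoots and -0.48 to 0.92 for the difference. Other estradiol estimates kept their sign and stayed without a call, but several moved by over 1.5 times. In shoots BGLU21 ranged from 0.21 to 0.98, PYK10 from -0.36 to -0.066 and NAI2 from -0.39 to -0.19. In roots BGLU21 ranged from -0.18 to -0.090 and NAI2 from -0.13 to -0.023. The difference of effects ranged from -1.12 to -0.35 for BGLU21, 0.074 to 0.37 for PYK10 and 0.11 to 0.31 for NAI2. The pair BGLU21 and BGLU22 ranged from -1.08 to -0.56. The causes were not tested. Groups of 2 and 3 arrays and the lack of detection calls limit the low shoot values of BGLU21 and BGLU22.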
